A study of Rattus norvegicus with 6 samples.

Results

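The genes described here encode the nuclear-encoded subunits of oxidative phosphorylation, measured in NSCPs (nerve-derived Schwann cell precursors) and SKPs (skin-derived precursors) of newborn rats. They were selected by symbol on the array: Ndufa, Ndufb, Ndufc, Ndufs and Ndufv genes without the Ndufaf assembly factors, Sdha to Sdhd, all Uqcr genes, the Cox4 to Cox8 genes, Cyc1, Cycs and all Atp5 genes. The rule gave 93 of 18166 genes, each read by its brightest probe set on average over the 6 arrays. Of the 93, 77 are subunits, cytochrome c or the ATP synthase inhibitor, called subunits below, and 16 are copies or pseudogenes with their own symbol. By complex, the 77 fall into 32 genes of complex I, 4 of complex II, 8 of complex III, 18 of complex IV and 14 of complex V, plus Cycs. Ndufa4 and its paralogue Ndufa4l2 were placed in complex IV, where the Ndufa4 protein is known to reside. Ndufa3, Ndufa10, Ndufa13, Ndufb1, Uqcr10, Cox7a1, Cox7a2, Atp5f1c, Atp5f1e, Atp5mc2 and Atp5mpl lack a probe set that carries their symbol alone and are not analysed here.

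Oxidative phosphorylation is carried out in the inner mitochondrial membrane. Complex I takes electrons from NADH and complex II from succinate, complex III passes them by way of cytochrome c to complex IV, and complex IV reduces oxygen. The protons pumped on the way drive ATP synthase, complex V. Most subunits are nuclear genes, a smaller part lies on mitochondrial DNA, and the factors NRF1, GABP (an ETS factor) and YY1 are known to act on many of the nuclear promoters.

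The NSCPs were cultured from sciatic nerve on laminin (4 μg/ml) and poly-D-lysine (30 μg/ml), with N2 (2%), forskolin (5 μM) and neuregulin-1β (25 ng/ml) in the medium. The SKPs were cultured from back skin as spheres at 50000 cells/ml with 20 ng/ml EGF, 40 ng/ml FGF2 and, as the run-on growth text was read, 2% B27. All animals were newborn wild-type Sprague-Dawley rats, and each group had 3 arrays from separate isolates. Tissue, medium and growth form differ together between the groups, so their parts cannot be told apart. Values are log2 expression levels, differences subtract the SKP from the NSCP mean and carry the standard error (SE) of limma, and a gene is called higher or lower when its p-value, adjusted over all 18166 genes by the Benjamini-Hochberg method, was under 0.05. The levels of different genes come from different probes and are not compared with each other.

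In the same arrays the Schwann lineage markers were higher in NSCPs in 8 of 8 measured genes and the dermal fibroblast markers lower in 9 of 9. Of the macrophage and leukocyte markers 10 of 10 were lower, with summed log2 levels of 50.5 to 52.2 in NSCPs, against 101.3 to 111.6 in SKPs, and 7 of the 10 were within background in NSCPs. Background means a group mean not above 5.32, a level that 95% of 227 odorant and vomeronasal receptor genes (genes of sensory neurons) do not exceed. Proliferation markers were higher in NSCPs in 8 of 8, with summed levels of 87.0 to 87.8 in NSCPs, against 65.4 to 67.9 in SKPs. Adipocyte markers were lower in 6 of 6, with summed levels of 30.8 to 33.3 in NSCPs, against 51.2 to 55.2 in SKPs. Of the pericyte and smooth muscle markers 3 of 7 were lower, with summed levels of 42.6 to 43.6 in NSCPs, against 47.2 to 48.5 in SKPs. The part of these cell types and of proliferation in the results below was not tested, and in such bulk samples fewer cells of a type and less RNA per cell cannot be told apart.

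Genes called higher in NSCPs were found in each of the 5 complexes, most with differences under 1. Of the 77 subunits, 48 were called higher and 0 lower in NSCPs by limma, and at an unadjusted p under 0.05 limma also gave 0 lower. Among all genes 25.2% were called higher and 18.6% lower (43.7% either way), and among genes with a mean above background 29.7% and 24.4%. The median difference of the 77 was 0.50 (a 1.42-fold median excess), against 0.14 over all genes. Differences ran from -0.26 to 1.71, and 71 were above 0. In 58 of the 77 every NSCP array lay above every SKP array, against 34.4% of all genes (56.6% in either order), and the opposite order occurred in 0.

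**Figure D1:**
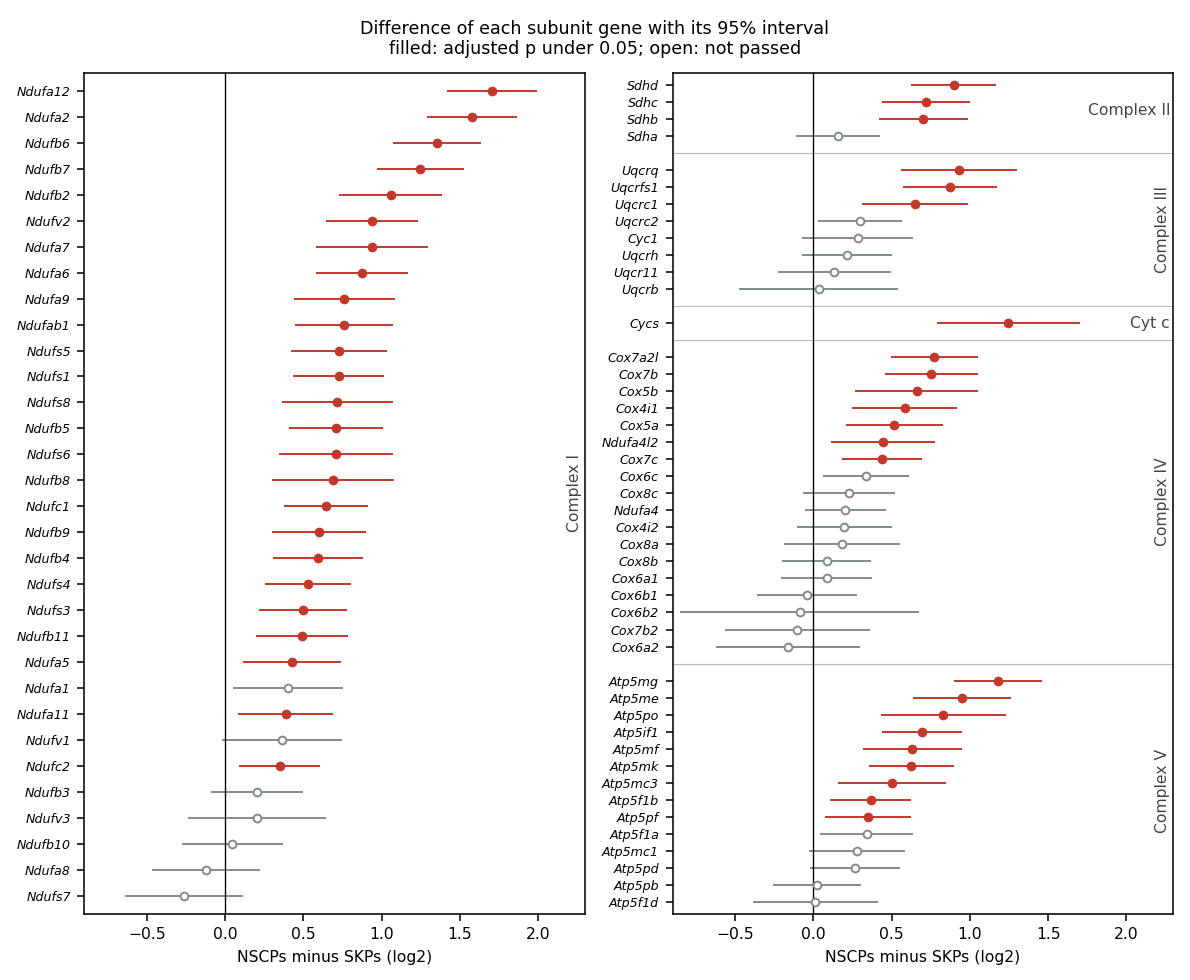
Difference (NSCP mean minus SKP mean, log2) of each of the 77 subunit genes with its 95% interval, by complex. Filled points passed the test (48 genes, all to the right of 0) and open points did not (29 genes).

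The mean level of the subunits did not overlap between the groups. Averaged over the 77 genes, the level was 9.03, 9.20 and 9.10 in NSCP replicates 1, 2 and 3, against 8.51, 8.66 and 8.60 in SKP replicates 1, 2 and 3. Replicate 2 was the highest array of its group for 46 of the 77 genes in NSCPs and for 48 in SKPs. Replicate 1 was the lowest for 42 in NSCPs and for 49 in SKPs. The share of all genes above 5.32 had the same order in both groups. It was 67.3%, 68.9% and 68.5% in NSCP replicates 1, 2 and 3, and 67.4%, 69.1% and 68.3% in those of SKPs. The mean level of all genes was 6.69, 6.72 and 6.70 in NSCPs, and 6.70, 6.69 and 6.71 in SKPs. The median SD over 3 arrays was 0.16 in NSCPs and 0.11 in SKPs. RefSeq holds a named copy or pseudogene of 38 of the 77, whose transcripts the probes may share, and 24 of these 38 and 24 of the other 39 were called higher.

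**Figure D2:**
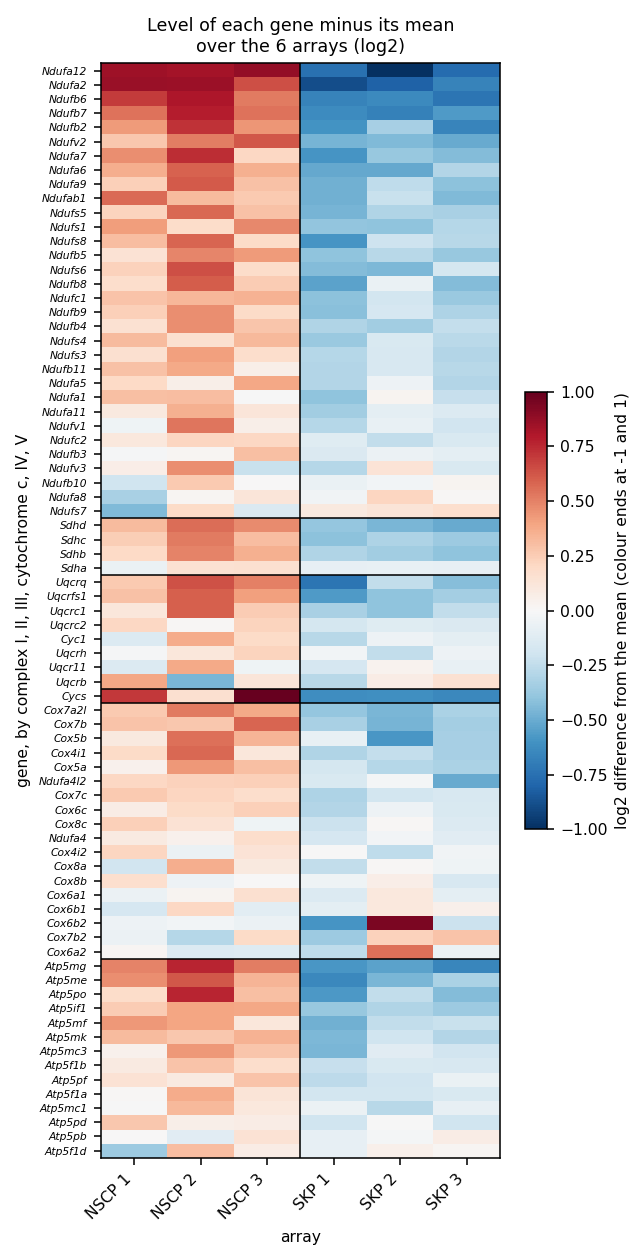
Level of each subunit gene (rows, by complex) on each array (columns, NSCPs then SKPs) minus the gene's mean over the 6 arrays, on the log2 scale. The NSCP columns are mostly red and the SKP columns mostly blue. Ndufs7 and Cox6b1 are among the 6 genes with an NSCP mean below the SKP mean, and single arrays stand apart for Cox6b2 (SKP replicate 2) and Uqcrb (NSCP replicate 2).

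At least a 2-fold excess in NSCPs, 1 on the log2 scale, was reached by 7 of the 77 subunits, 5 of them in complex I. That share is near the 7.45% of all genes. Since so many members moved one way, their promoters (250 bases before to 50 after the gene start, RefSeq, GRCr8) were searched on both strands for GCATGCGC (the NRF1 core), CCGGAAG (an ETS site, as bound by GABP) and AAGATGGC (YY1). Of the 77 subunits 68 had a promoter in the table. The NRF1 core was found in 13.2% of the 68, against 2.47% of all 33469 promoters of this length and 3.11% of the 21851 of protein-coding genes. The ETS letters occurred in 27.9%, against 8.75% of all and 10.7% of protein-coding promoters. The YY1 letters were in 22.1%, against 3.17% of all and 3.67% of protein-coding promoters. Among the 47 called subunits with a promoter the 3 shares were 17%, 29.8% and 27.7%, and among the 21 that did not pass 4.76%, 23.8% and 9.52%. The NRF1 and YY1 shares of the 21 rest on 1 and 2 promoters. Subunit promoters are also richer in CpG, with a median of 20 CpG, against 7 in all and 11 in protein-coding promoters. The median was 21 among the called subunits and 16 among those that did not pass. All shares given here are a description with no test. Other letters searched were ACGTG (27.9% of subunit promoters, against 19.3% of all and 19.8% of protein-coding ones) and GCGTG (44.1%, against 29.7% and 34.7%), both cores of hypoxia response elements. The E-box CACGTG was in 8.82%, against 6.42% and 7.02%, and it overlaps ACGTG. Between called subunits and those that did not pass, ACGTG was in 25.5% and 33.3%, and GCGTG in 46.8% and 38.1%. For the E-box these shares were 6.38% and 14.3%, so ACGTG and the E-box were less frequent among the called.

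Of the 7 promoters, those of Ndufa2, Ndufb7, Cycs and Atp5mg hold a match to the NRF1, ETS or YY1 letters and are printed with that of Ndufa12, the member with the largest difference, which holds none. Those of Ndufb6 and Ndufb2 hold none either. Sequences read 5′ to 3′ on the strand of the gene, and capitals mark the matches.

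Ndufa12 (chr7:30658066-30658365, plus strand): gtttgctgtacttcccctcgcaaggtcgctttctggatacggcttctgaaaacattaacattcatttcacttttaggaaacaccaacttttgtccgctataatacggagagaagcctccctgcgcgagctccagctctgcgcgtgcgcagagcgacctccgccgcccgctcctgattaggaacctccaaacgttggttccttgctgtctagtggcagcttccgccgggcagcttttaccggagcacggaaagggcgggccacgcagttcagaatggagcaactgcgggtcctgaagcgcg

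Ndufa2 (chr18:28631835-28632134, minus strand): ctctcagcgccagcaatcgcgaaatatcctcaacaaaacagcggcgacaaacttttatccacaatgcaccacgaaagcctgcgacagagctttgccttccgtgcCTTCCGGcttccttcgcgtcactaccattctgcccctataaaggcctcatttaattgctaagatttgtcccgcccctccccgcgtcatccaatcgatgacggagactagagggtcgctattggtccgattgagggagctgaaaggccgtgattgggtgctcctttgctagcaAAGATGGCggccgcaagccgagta

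Ndufb7 (chr19:41477242-41477541, minus strand): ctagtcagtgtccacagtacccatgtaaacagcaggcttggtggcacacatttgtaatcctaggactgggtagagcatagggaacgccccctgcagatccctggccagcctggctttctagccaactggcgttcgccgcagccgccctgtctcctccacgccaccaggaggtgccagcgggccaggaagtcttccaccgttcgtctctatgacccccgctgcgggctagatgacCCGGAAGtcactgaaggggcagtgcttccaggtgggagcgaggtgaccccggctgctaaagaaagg

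Cycs (chr4:80984718-80985017, minus strand): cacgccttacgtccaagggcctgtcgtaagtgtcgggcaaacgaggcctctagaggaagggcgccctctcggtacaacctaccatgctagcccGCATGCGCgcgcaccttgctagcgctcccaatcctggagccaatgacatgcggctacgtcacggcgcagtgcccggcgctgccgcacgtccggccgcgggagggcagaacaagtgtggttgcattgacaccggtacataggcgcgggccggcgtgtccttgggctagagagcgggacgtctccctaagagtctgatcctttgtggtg

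Atp5mg (chr8:54130358-54130657, minus strand): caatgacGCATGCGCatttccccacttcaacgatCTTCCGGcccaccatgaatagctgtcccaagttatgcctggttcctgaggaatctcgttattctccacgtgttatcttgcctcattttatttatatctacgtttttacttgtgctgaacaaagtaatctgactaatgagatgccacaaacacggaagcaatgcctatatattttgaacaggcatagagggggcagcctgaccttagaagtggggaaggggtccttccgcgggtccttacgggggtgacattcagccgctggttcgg

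Counted from the gene start as 1, with no 0, the NRF1 core begins at -157 in Cycs and at -243 in Atp5mg. The ETS letters begin at -146 in Ndufa2, -16 in Ndufb7 and -216 in Atp5mg. The YY1 letters of Ndufa2 begin at 27, after the gene start.

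Complex I had the most members called, 25 of 32 higher, with a median difference of 0.67. Its largest differences were in accessory subunits. Ndufa12, an accessory subunit of the peripheral arm, stood at 10.28, 10.27 and 10.32 in NSCPs, against 8.69, 8.40 and 8.67 in SKPs. The groups lie far apart and the NSCP arrays are nearly equal, a 3.26-fold excess (difference 1.71, SE 0.13, adjusted p = 1.03e-05 by limma). Ndufa2, which sits beside the NADH-oxidising subunits, was at 7.86, 7.85 and 7.64 in NSCPs, against 6.11, 6.18 and 6.32 in SKPs (2.98-fold, adjusted p = 1.69e-05). All NSCP arrays again exceed all SKP arrays.

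Subunits of the membrane arm, where protons are pumped, came next. Ndufb6 was at 8.54, 8.65 and 8.36 in NSCPs, against 7.17, 7.20 and 7.11 in SKPs (difference 1.35, SE 0.12). Ndufb7, on the intermembrane face, was at 8.40, 8.63 and 8.40 in NSCPs, against 7.22, 7.17 and 7.29 in SKPs (difference 1.25, SE 0.12). For Ndufb2 the levels were 9.70, 10.00 and 9.71 in NSCPs, against 8.68, 8.94 and 8.61 in SKPs (difference 1.06, SE 0.14). None of these 3 overlapped between the groups. Over both series of letters, 8 of 10 Ndufa genes and 8 of 10 Ndufb genes of complex I were higher, with medians of 0.76 and 0.64. Ndufab1, the mitochondrial acyl carrier protein that complex I shares with fatty acid and lipoate synthesis, was 1.69-fold higher.

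**Figure D3:**
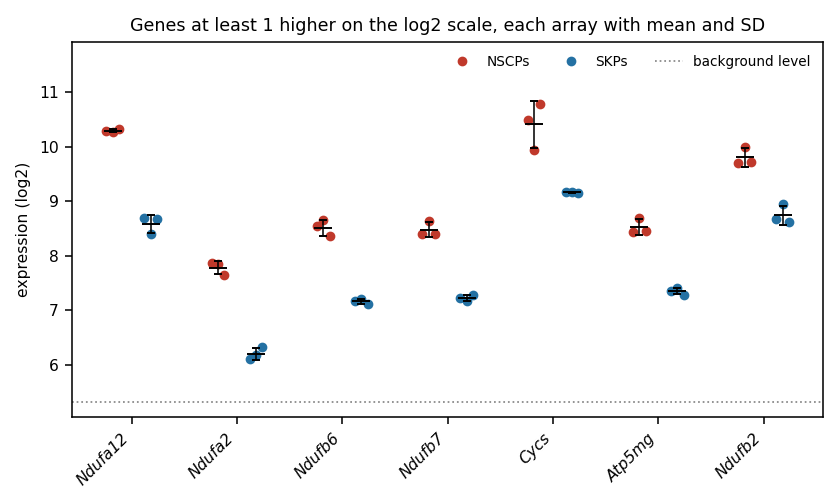
Expression (log2) of the 7 genes at least 1 higher in NSCPs on each array, with mean and SD (n = 3). NSCP points lie left of SKP points and above them for every gene, and the dotted line is the background level of 5.32.

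The core subunits of complex I carry the flavin and the iron-sulfur clusters that lead electrons to ubiquinone. Of the 6 measured, 4 were higher. Ndufv2, an iron-sulfur subunit at the NADH end, was at 10.26 ± 0.18 in NSCPs, against 9.33 ± 0.03 in SKPs (n = 3, SD), a difference of 0.94. Ndufs1, which holds several clusters of the chain, was at 9.96 ± 0.16 in NSCPs, against 9.23 ± 0.07 in SKPs (n = 3, SD), Ndufs8 at 9.27 ± 0.20 in NSCPs, against 8.55 ± 0.21 in SKPs (n = 3, SD) and Ndufs3 at 7.57 ± 0.14 in NSCPs, against 7.07 ± 0.07 in SKPs (n = 3, SD). Ndufv1, the flavin subunit that oxidises NADH, did not pass at 9.32 ± 0.31 in NSCPs, against 8.95 ± 0.10 in SKPs (n = 3, SD), with a 95% interval of the difference of -0.02 to 0.75.

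Ndufs7, which holds the last cluster before ubiquinone, was at 8.77, 9.41 and 9.07 in NSCPs, against 9.31, 9.34 and 9.38 in SKPs. Its difference of -0.26 was the lowest of all 77 subunits and did not pass (adjusted p = 0.231, interval -0.64 to 0.12). Without NSCP replicate 2, its highest NSCP array, it was called lower (-0.43, adjusted p = 0.0381). With array weights it was called lower too (-0.32, adjusted p = 0.0386). The other complex I members that did not pass were Ndufa1 (0.40), Ndufb3 (0.20), Ndufv3 (0.20), Ndufb10 (0.05) and Ndufa8 (-0.12).

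Complex II links the tricarboxylic acid cycle to the chain, and all its subunits are nuclear genes. Sdhd, a membrane anchor, was at 9.67, 9.92 and 9.83 in NSCPs, against 8.98, 8.90 and 8.86 in SKPs (1.86-fold, adjusted p = 0.000386). The other anchor, Sdhc, was at 10.73, 11.01 and 10.79 in NSCPs, against 10.07, 10.18 and 10.12 in SKPs (1.65-fold). Sdhb, the iron-sulfur subunit, was at 9.77, 10.07 and 9.92 in NSCPs, against 9.27, 9.23 and 9.16 in SKPs (1.63-fold). These 3 rose with wide gaps between the groups.

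Sdha, the flavoprotein that oxidises succinate, was at 10.09, 10.30 and 10.31 in NSCPs, against 10.08, 10.08 and 10.07 in SKPs. The groups do not overlap, though the nearest NSCP and SKP arrays are almost equal, and the difference of 0.16 did not pass (adjusted p = 0.309, interval -0.11 to 0.43). Sdha thus lay near the median difference of all genes, while Sdhb, Sdhc and Sdhd lay well above it. Whether the 4 differ from each other was not tested.

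Complex III had 3 of 8 members higher and a median difference of 0.29. That is 37.5% called higher, against 25.2% of all genes and 29.7% of genes with a mean above background. Uqcrq, a small membrane subunit, was at 9.43, 9.81 and 9.67 in NSCPs, against 8.44, 8.93 and 8.75 in SKPs (difference 0.93, SE 0.16). Uqcrfs1, the Rieske iron-sulfur protein, was at 8.60, 8.91 and 8.72 in NSCPs, against 7.74, 7.91 and 7.97 in SKPs (0.87, SE 0.13). Uqcrc1, a core protein on the matrix side, was at 9.40, 9.88 and 9.54 in NSCPs, against 8.96, 8.89 and 9.04 in SKPs (0.65, SE 0.15). For each of these 3 the lowest NSCP array exceeds the highest SKP array. Cyc1, the cytochrome c1 that hands electrons to cytochrome c, was at 9.22 ± 0.26 in NSCPs, against 8.93 ± 0.12 in SKPs (n = 3, SD) and did not pass (interval -0.07 to 0.64). Uqcrc2 (0.30), Uqcrh (0.22), Uqcr11 (0.13) and Uqcrb (0.03) did not pass either. Of the complex III genes Uqcrb varied most among NSCP arrays, with an SD of 0.43.

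Cycs encodes cytochrome c, the mobile carrier between complexes III and IV, which also triggers caspases when released from mitochondria. It was at 10.49, 9.94 and 10.79 in NSCPs, against 9.17, 9.17 and 9.14 in SKPs, a 2.37-fold excess (SE 0.20, adjusted p = 0.00114). The SKP arrays are nearly equal and the NSCP arrays spread widely, with NSCP replicate 2 lowest, the reverse of its place for most subunits. A further probe set of Cycs gave a difference of 1.76 in the same direction. RefSeq holds 10 Cycs copies, so the probes may read more than 1 locus.

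Complex IV had 7 of 18 members higher and the lowest median of the 5 complexes, 0.22, though the difference between complexes was not tested. The share called higher was 38.9%, against 25.2% of all genes and 29.7% of genes with a mean above background. Its 18 genes include 11 widely expressed subunits, of which 6 were higher (median 0.44), and 7 isoforms known from other tissues or from low oxygen, of which 1 was (median 0.08). Cox7a2l, which joins complexes III and IV into supercomplexes, was at 10.04, 10.29 and 10.15 in NSCPs, against 9.39, 9.32 and 9.46 in SKPs (adjusted p = 0.00098). Cox7b was at 10.04, 10.03 and 10.34 in NSCPs, against 9.43, 9.29 and 9.42 in SKPs, and Cox5b at 9.03, 9.48 and 9.27 in NSCPs, against 8.86, 8.35 and 8.60 in SKPs. No NSCP array of these 3 falls into the SKP range.

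Cox4i1, the widely expressed form of the regulatory subunit 4, was at 9.96, 10.35 and 9.89 in NSCPs, against 9.47, 9.53 and 9.45 in SKPs (1.5-fold, adjusted p = 0.0115). Its counterpart Cox4i2, known from lung and from low oxygen, was at 6.04, 5.77 and 5.97 in NSCPs, against 5.82, 5.57 and 5.80 in SKPs, little above background, and did not pass (interval -0.11 to 0.50). Cox5a was higher by 0.52 and Cox7c by 0.44, but Cox5a lost the call without NSCP replicate 3 or SKP replicate 3, and Cox7c without SKP replicate 1. Cox6c was at 7.17, 7.29 and 7.33 in NSCPs, against 6.80, 7.04 and 6.94 in SKPs and just missed the threshold (adjusted p = 0.0528).

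Several widely expressed subunits of complex IV showed no detectable difference with 3 arrays a group. Cox6a1 was at 11.75, 11.83 and 11.97 in NSCPs, against 11.67, 11.92 and 11.71 in SKPs, with an interval of -0.21 to 0.37. Cox6b1 was at 9.17, 9.54 and 9.23 in NSCPs, against 9.24, 9.44 and 9.39 in SKPs (-0.36 to 0.28), and Cox8a at 10.15, 10.70 and 10.44 in NSCPs, against 10.10, 10.35 and 10.30 in SKPs (-0.19 to 0.55). The groups of all 3 overlap. Ndufa4 was at 11.44, 11.39 and 11.53 in NSCPs, against 11.18, 11.32 and 11.24 in SKPs, and its difference of 0.20 did not pass. Ndufa4l2, its relative induced in low oxygen, was called higher (difference 0.45, adjusted p = 0.036), but at 5.44 ± 0.02 in NSCPs, against 5.00 ± 0.25 in SKPs (n = 3, SD) it lay at the background level, and the call was lost without any single array other than SKP replicate 2.

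Isoforms of striated muscle and testis did not pass in any case. Cox6a2, of heart and skeletal muscle, was at 6.12, 5.96 and 5.97 in NSCPs, against 5.85, 6.65 and 6.04 in SKPs, and Cox8b, also of muscle, at 5.07, 4.85 and 4.90 in NSCPs, against 4.86, 4.97 and 4.74 in SKPs. Among testis forms, Cox6b2 was at 6.60, 6.61 and 6.59 in NSCPs, against 6.06, 7.58 and 6.43 in SKPs. SKP replicate 2 was the highest array for Cox6a2 and for Cox6b2. Cox7b2 stood at 3.08 ± 0.24 in NSCPs, against 3.19 ± 0.36 in SKPs (n = 3, SD) and Cox8c at 4.81 ± 0.14 in NSCPs, against 4.58 ± 0.11 in SKPs (n = 3, SD). Like Cox8b, both were within background in each group. Striated muscle markers were called in 0 of 6 measured genes by limma and 2 had an unadjusted p under 0.05, with summed levels of 32.9 to 33.6 in NSCPs, against 31.5 to 33.1 in SKPs, and all 5 measured germ cell markers were within background in both groups, though 2 of them, Tnp1 and Ddx4, were called higher in NSCPs.

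**Figure D4:**
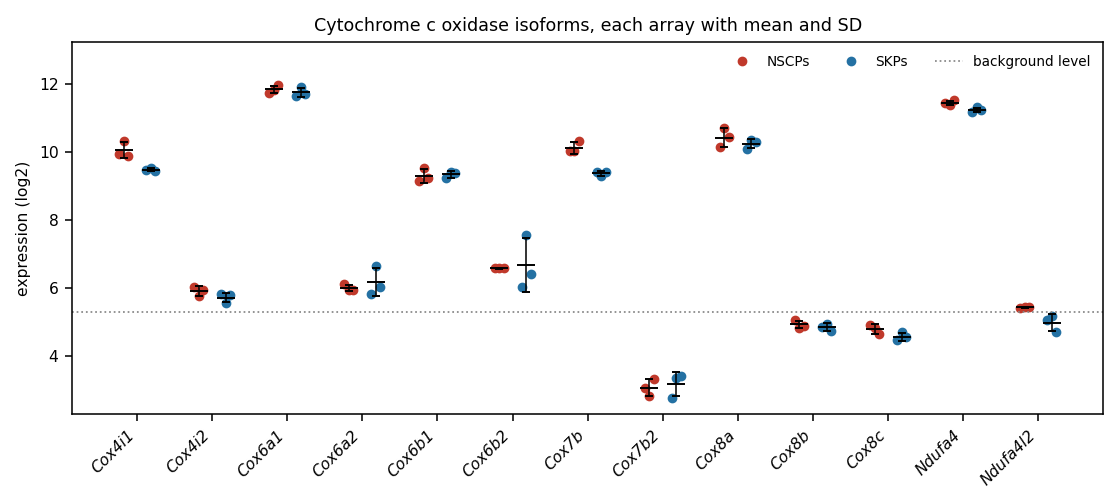
Expression (log2) of complex IV isoforms on each array, NSCPs left of SKPs, with mean and SD (n = 3) and the background level as a dotted line. Cox4i1 and Cox7b are higher in NSCPs, Cox6a1, Cox6b1 and Cox8a overlap, and Cox7b2, Cox8b and Cox8c lie below the line.

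ATP synthase, complex V, had 9 of 14 members higher, with a median difference of 0.43. The largest were small subunits of the membrane part, around which the enzyme forms dimers. Atp5mg, subunit g, was at 8.43, 8.70 and 8.45 in NSCPs, against 7.36, 7.40 and 7.29 in SKPs (2.26-fold, adjusted p = 8.94e-05), and RefSeq lists 11 copies of this gene, whose transcripts the probes may share. Atp5me, subunit e, was at 8.41, 8.56 and 8.28 in NSCPs, against 7.30, 7.48 and 7.62 in SKPs (1.93-fold). In both, a wide gap separates the groups. Atp5po, the stalk subunit that ties the catalytic head to the membrane part, was at 8.99, 9.57 and 9.10 in NSCPs, against 8.23, 8.56 and 8.37 in SKPs (1.78-fold). Atp5mf, Atp5mk and Atp5pf were higher by 0.63, 0.62 and 0.35, and Atp5pf lost the call without any single array other than NSCP replicate 2, and with the replicate number as a block (adjusted p = 0.0577).

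Of the genes of the rotating c ring, Atp5mc3 was at 9.76, 10.16 and 10.00 in NSCPs, against 9.27, 9.61 and 9.53 in SKPs and was called higher (adjusted p = 0.0255), a call lost without any single array other than NSCP replicate 1 or SKP replicate 2. Atp5mc1 was at 8.76, 9.09 and 8.87 in NSCPs, against 8.71, 8.49 and 8.68 in SKPs and did not pass (adjusted p = 0.126). Neither gene's groups overlap. Whether the 2 genes differ in their response was not tested. The catalytic head had a median difference of 0.34 over 3 genes, and the membrane part and stalks 0.56 over 10. Atp5f1b, the catalytic beta subunit, was called higher at 11.18 ± 0.10 in NSCPs, against 10.82 ± 0.04 in SKPs (n = 3, SD), a difference of 0.37, a call lost without any single array other than NSCP replicate 1. Atp5f1a, the alpha subunit, differed by 0.34 and missed the threshold (adjusted p = 0.0629). Atp5f1d, the delta subunit, was at 11.16 ± 0.34 in NSCPs, against 11.14 ± 0.07 in SKPs (n = 3, SD), with an interval of -0.39 to 0.41. Atp5pb and Atp5pd, of the peripheral stalk, differed by 0.02 and 0.27 and did not pass.

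Atp5if1 encodes the inhibitor that blocks ATP hydrolysis by the synthase when the proton gradient collapses. It was at 10.36, 10.50 and 10.49 in NSCPs, against 9.73, 9.81 and 9.74 in SKPs, a 1.62-fold excess (SE 0.11, adjusted p = 0.00119). The groups are tight and wide apart.

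Among the 16 copies and pseudogenes 7 were within background in both groups. Of the same 16, 5 were called higher (Atp5hl1, Uqcr10-ps1, Ndufs6-ps1, Ndufb4l4 and Ndufa13-ps1) and 0 lower, with 0 lower at an unadjusted p under 0.05 by limma as well. The share higher, 31.2%, is near the 25.2% of all genes and the 29.7% of genes above background. Their probes may read the parent gene, so such a call may not be separate from that of the parent.

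Gene lists around the complexes were described in the same fit. Their counts stand beside shares of 25.2% called higher and 18.6% lower among all genes. Among genes with a mean above background these shares were 29.7% and 24.4%. Assembly factors, which build the complexes and are absent from the finished enzymes, were mostly higher where called. For complex I 12 of 17 factors were higher and 1 lower (median 0.47), among them Ndufaf5 (0.94) and Ndufaf2 (SKP mean within background), the lower gene being Dmac2 (-0.39). For complex III 3 of 5 were higher, among them Bcs1l, which inserts the Rieske protein (1.97-fold). For complex IV 8 of 16 were higher and 0 lower, with 1 lower at an unadjusted p under 0.05, led by Higd1a, a small inner membrane protein induced in low oxygen (2.9-fold), and Coa3 (2.1-fold). For complex V 2 of 5 were higher, Atpaf1 (0.88) and Fmc1 (0.65), and 1 lower, Atpaf2 (-0.55). Atpaf1 and Atpaf2 are factors that fold the beta and the alpha subunit. For complex II 0 of 3 factors were called by limma, and 1, Sdhaf2 (0.30), had an unadjusted p under 0.05.

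The mitochondrial ribosome, which translates the subunits encoded on mitochondrial DNA, was higher in 55 of 72 genes and lower in 3, with a median of 0.69. Mrps6 (1.74), Mrpl49 (1.42) and Mrps14 (1.35) were among those higher, as was Mrpl42, whose SKP mean was within background. The genes Mrpl52 (-0.85), Mrpl38 (-0.75) and Mrpl4 (-0.58) were lower. Genes of mitochondrial DNA are not analysed here. Fatty acid oxidation genes were higher in 10 of 16, led by Hadhb (1.06) and Cpt1a (1.05), and lower in 1, Acadl (-0.48). Tricarboxylic acid cycle genes, with the pyruvate dehydrogenase complex, were higher in 6 of 17, led by Suclg1 (0.75) and Idh3a (0.66), and lower in 1, Pdhx (-0.35). The share higher, 35.3%, is near the 29.7% of genes with a mean above background. Carriers and outer membrane channels were higher in 5 of 8, among them Vdac3 (0.98) and Vdac1 (0.85).

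Glycolysis genes were higher in 5 of 14 and lower in 6, with Aldoc (1.60), Ldha (1.07) and Pgk1 (1.05) higher and Pfkp lower (-1.42). The shares are 35.7% higher and 42.9% lower, against 25.2% and 18.6% of all genes. Uncoupling and superoxide defence genes had 2 higher and 4 lower among 13, Prdx5 being lowest (-1.34). Kinases and phosphatases of pyruvate dehydrogenase had 1 higher, Pdk4 (SKP mean within background), and 2 lower among 7. Among coenzyme Q genes and other entries to it 3 of 13 were higher and 0 lower by limma, with 0 lower also at an unadjusted p under 0.05. That is 23.1%, near the 25.2% of all genes called higher. Coq7, a hydroxylase of coenzyme Q synthesis and 1 of the 3, was 3.49-fold higher. Cristae and supercomplex factors, a list that includes Cox7a2l, were higher in 6 of 13 and lower in 1 (Tafazzin, -0.71).

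**Figure D5:**
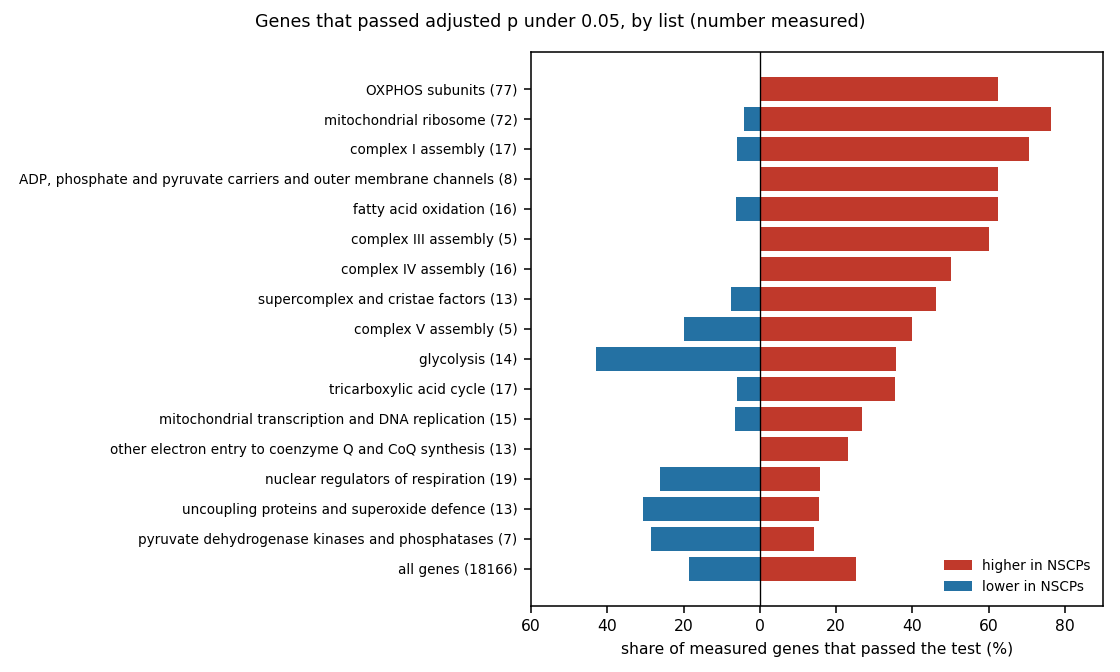
Share of measured genes that passed an adjusted p under 0.05, to the right if higher in NSCPs and to the left if lower, for the subunits, for lists with at least 5 measured genes and for all genes. The subunits show a bar to the right only (62.3%). So do the complex III and IV assembly factors, the carriers and channels, and the coenzyme Q genes. All other lists have bars on both sides.

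The nuclear regulators of respiration went both ways, 3 higher and 5 lower among 19. The shares are 15.8% higher and 26.3% lower, against 25.2% and 18.6% of all genes. Nrf1, the factor of the NRF1 core, was at 7.95, 8.12 and 8.06 in NSCPs, against 7.50, 7.71 and 7.75 in SKPs (adjusted p = 0.0339), and Yy1 at 9.25, 9.03 and 9.29 in NSCPs, against 8.86, 8.91 and 8.76 in SKPs (adjusted p = 0.0477). Both were modestly higher with no overlap of the groups. Gabpa, the DNA-binding part of GABP, was at 10.82, 10.02 and 10.65 in NSCPs, against 10.29, 10.20 and 10.23 in SKPs and did not pass. The coactivator gene Ppargc1b, known to raise mitochondrial genes, was lower at 4.96, 5.22 and 5.20 in NSCPs, against 6.61, 7.12 and 6.76 in SKPs (-1.71, NSCP mean within background). Its relative Ppargc1a was also called lower (-0.96, adjusted p = 0.0131 by limma), but it was within background in both groups. Ppargc1b and the called subunits thus differed in opposite directions. Epas1, the oxygen-regulated HIF-2 alpha gene, was at 10.25, 10.54 and 10.32 in NSCPs, against 5.84, 6.19 and 6.20 in SKPs (19.6-fold), and Nfe2l2, a factor of the oxidative stress response, was lower (-1.45).

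Among factors of mitochondrial transcription and DNA replication 4 of 15 were higher (26.7%, near the 25.2% of all genes) and 1 lower. Tfam, which packages mitochondrial DNA and starts its transcription, was at 8.22, 7.97 and 8.34 in NSCPs, against 7.02, 7.23 and 7.05 in SKPs (2.11-fold, adjusted p = 0.000288). Tfb1m, which methylates mitochondrial ribosomal RNA, was higher by 0.78, and the transcription factor gene Tfb2m was lower (-0.65).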

How the data were processed

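Total RNA from 3 NSCP and 3 SKP cultures was measured on expression arrays, with cDNA made from 400 ng of RNA per the labels' protocols. The deposited values are log2 expression values, made by the authors with oligo and RMA per the submitters' processing notes, which give no versions; RMA's quantile step would hide a shift of all genes. Of 36685 probe sets 18511 have 1 gene symbol, 575 several and 17599 none in the platform's table. Symbols with several probe sets (291 genes) were read by the one with the highest mean. The groups were fitted with limma 3.58.1 (R 4.3.3; lmFit and eBayes, 2-sided, Benjamini-Hochberg over 18166 genes) with no filter; the fit was tested on simulated data. Sequences are from RefSeq (GRCr8) and were matched by Entrez ID. The number of arrays limits the precision. Plots used matplotlib 3.10.9 (Python 3.11.15).

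The members and gene lists were chosen with earlier results of these data known, and no list was tested. Values are given per array for members at least 1 higher, for up to 4 called members per complex, and for isoforms. Core subunits are given by mean and SD, and the lists by counts and some called genes. More than 4 called genes are named for the mitochondrial ribosome and the nuclear regulators. Nrf1 and Yy1 are named though Tfeb (-0.77), another called regulator, differed more. Alternatives were each array left out, the replicate number as a block, 2 other scalings, a filter on dim genes, the mean of probe sets, all probe sets tested, other priors, array weights and stricter thresholds.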

Additional observations from a re-analysis of the deposited data

How the results depend on the processing

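The count of 48 subunits called higher ranged from 39 to 45 when single arrays were left out, was 45 with the replicate block (Atp5pf, Ndufa5 and Ndufc2 lost the call), and lay between 34 and 54 under the other alternatives except limma's treat against 0.5, which asks for a larger change: there 10 were called (6 in complex I, 1 in II, 0 in III, 0 in IV, 2 in V, and Cycs), and the 93 members had 10 as well. The labels give same-numbered arrays a shared number and nothing more. Over all genes their deviations from the group means correlated at 0.0283 to 0.0501, and each array correlated best with its own number. Among the subunits the same replicate numbers were most often highest and lowest in both groups. Whether same-numbered arrays share a batch was not tested. At an adjusted p under 0.01 complex IV had 2. The number called lower was 0 to 1 without single arrays and 1 with array weights, Ndufs7 in each case. The subunits' median ranged from 0.44 to 0.57. Of the 48, 38 were called under every alternative other than the 2 stricter thresholds and 10 also under those. Atp5f1b, Atp5mc3, Atp5pf, Cox5a, Cox7c, Ndufa11, Ndufa4l2, Ndufa5, Ndufb11 and Ndufc2 lost the call when some single array was left out, and Ndufa11 without any of the 6. Signs of uncalled genes turned, the cause not tested: under renewed quantile normalization Atp5f1d -0.0508, Atp5pb -0.0215, Cox6b2 0.0303; under median centring Cox6b1 0.0248; under mean of probe sets Cox6b1 0.15; under array weights Cox6b2 0.064, Ndufb10 -0.0103. Without single arrays the ranges of those that turned were Atp5f1d -0.14 to 0.20, Atp5pb -0.0431 to 0.0852, Cox6a2 -0.33 to 0.0714, Cox6b1 -0.16 to 0.0312, Cox6b2 -0.40 to 0.36, Cox7b2 -0.31 to 0.0157, Ndufa8 -0.21 to 0.00701, Ndufb10 -0.0731 to 0.16, Uqcr11 -0.0205 to 0.24, Uqcrb -0.15 to 0.27. The filter on dim genes gives no value for the genes under it.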

Other observations

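Beside the 93 genes, 8 probe sets carry several symbols of which at least 1 meets the rule, so they stand for no single gene. In 5 of the 8 every NSCP array exceeded every SKP array, against 34.4% of all genes (56.6% in either order). The 5 are not separate genes. They include a pair that both carry Cox7a2 and Cox7a2l2, and 1 that carries Ndufs5, a gene also read by its own probe set. Their differences ran from -0.33 to 0.87, with a median of 0.41, and 1 was below 0, a probe set of Ndufa3 and its pseudogene at 8.48, 8.59 and 8.76 in NSCPs, against 9.02, 8.92 and 8.89 in SKPs, chosen after its values were seen.

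Probe sets of a gene mostly pointed the same way. Atp5mk, Cox5a, Cycs and Ndufb3 each had probe sets with differences above 0 only, and the 3 of Cox5a include a pair with identical values. For Cox6b1 a dim probe set gave 0.33, against -0.04 for the one used, and for Ndufv3 the dimmer gave -0.05, against 0.20; none of these passed.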
